A study of Mus musculus with 11 samples.

Results

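Egr1, Egr2, Egr3, Nab2, Nr4a1 and Nr4a3 are genes that thymocytes switch on when their T cell receptor (TCR) binds ligand strongly, as happens during agonist selection. The 6 genes were chosen by name, and chromatin accessibility was described at every ATAC-seq peak overlapping the gene body extended by 20 kb on each side, among 21951 protein-coding genes of the annotation. The 9 libraries placed 36 accessible intervals in these 6 windows, out of 71400 in the genome, where an interval is the union of overlapping peaks of any library.

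All cells came from mice labelled C57BL/6, and no library carried a treatment. CD4SP thymocytes (2 libraries) are CD4 single-positive cells, conventional T cells past positive selection that can still undergo negative or agonist selection, and NKT thymocytes (2 libraries) are innate-like T cells that were isolated with CD1d-lipid tetramers. From bone marrow came the common lymphoid progenitor, CLP (3 libraries), and the innate lymphoid cell precursor, ILCP (2 libraries). Per the study's methods, ILCP were sorted by a fluorescent reporter placed in Zbtb16, the gene of the transcription factor PLZF, so this group carried an allele that its label does not name. The study contrasted NKT with CD4SP and ILCP with CLP, that is, PLZF-expressing cells with control cells of the same organ. The labels give no age, and the methods put all mice of the study at 4 to 8 weeks. The methods call the libraries of a cell type biological replicates, while the labels do not say whether they came from separate animals or pools. Each p-value sets the difference between groups beside those obtained when the library labels are exchanged. The thymic group joins CD4SP with NKT and the marrow group CLP with ILCP, so their SDs and p-values include differences between cell types.

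Egr1, Egr2 and Egr3 encode zinc-finger transcription factors of the immediate-early class, which are induced within the first wave of transcription after a TCR signal through the MAP kinase and calcineurin-NFAT pathways. Egr2 acts upstream of PLZF in developing NKT cells. Nab2 is a corepressor that binds EGR proteins and restrains them, and it is itself an EGR target. Nr4a1 (Nur77) and Nr4a3 (Nor1) are orphan nuclear receptors that report TCR signal strength and take part in the negative selection and the tolerance of T cells. Accessibility is not expression: a peak marks DNA open to the transposase, and these data hold no RNA.

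The sequences below are 3 of the intervals open in one group and in none of another, and the promoters of the members whose start-site percentile, given below, separated all thymic from all marrow libraries, Egr2 and Nr4a1. None is shown for Egr3, whose start site was open in the thymus only. The first 3 are the central bases of the peaks, from the mm10 assembly and read on the plus strand. The Nr4a1 stretch (chr15:101250304-101250603) lies between genes, upstream of the main start site, where all thymic and no marrow libraries had a peak. The Nr4a3 stretch (chr4:48074913-48075212) is intronic and was open in ILCP and in no CLP library. The Nab2 stretch (chr10:127670262-127670561) lies in an intron of the neighbouring gene Nemp1 and was called in NKT and in no CD4SP library. The other 2 are the 250 bases before a RefSeq start site (GRCm38.p6, the mm10 assembly), for Egr2 at chr10:67537316-67537565 and for Nr4a1 at chr15:101266596-101266845, both on the plus strand. Capitals mark matches to the 7 motifs searched, on either strand.
Nr4a1 upstream: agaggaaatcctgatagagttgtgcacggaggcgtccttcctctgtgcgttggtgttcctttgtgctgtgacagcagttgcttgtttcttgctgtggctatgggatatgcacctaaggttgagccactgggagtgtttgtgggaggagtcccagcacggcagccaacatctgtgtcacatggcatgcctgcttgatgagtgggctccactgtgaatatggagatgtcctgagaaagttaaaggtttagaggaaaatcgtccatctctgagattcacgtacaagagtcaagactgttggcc
Nr4a3 intron: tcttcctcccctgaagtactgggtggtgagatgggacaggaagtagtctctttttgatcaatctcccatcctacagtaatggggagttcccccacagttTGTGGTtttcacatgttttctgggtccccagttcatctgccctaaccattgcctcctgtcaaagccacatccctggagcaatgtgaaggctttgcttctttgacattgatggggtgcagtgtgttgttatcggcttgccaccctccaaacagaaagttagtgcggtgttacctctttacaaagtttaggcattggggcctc
Nab2 upstream: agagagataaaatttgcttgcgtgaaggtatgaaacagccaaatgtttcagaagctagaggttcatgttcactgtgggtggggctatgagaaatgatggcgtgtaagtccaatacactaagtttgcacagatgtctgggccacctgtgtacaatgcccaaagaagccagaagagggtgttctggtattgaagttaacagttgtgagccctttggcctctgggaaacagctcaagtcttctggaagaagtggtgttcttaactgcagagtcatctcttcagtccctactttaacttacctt
Egr2 promoter: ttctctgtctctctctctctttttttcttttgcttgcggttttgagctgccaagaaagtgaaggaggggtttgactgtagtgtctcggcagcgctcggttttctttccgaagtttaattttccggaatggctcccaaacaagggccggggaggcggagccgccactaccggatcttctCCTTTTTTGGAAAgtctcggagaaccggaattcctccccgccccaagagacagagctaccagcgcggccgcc
Nr4a1 promoter: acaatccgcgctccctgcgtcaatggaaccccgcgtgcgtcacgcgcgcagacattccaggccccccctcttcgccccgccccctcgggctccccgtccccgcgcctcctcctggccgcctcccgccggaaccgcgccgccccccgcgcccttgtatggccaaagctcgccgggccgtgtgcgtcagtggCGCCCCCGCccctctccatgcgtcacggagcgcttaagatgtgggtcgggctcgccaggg

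The motifs were the CArG box of the serum response factor SRF, TGACGT (the CRE of CREB and ATF factors), TGANTCA (AP-1), TGGAAA (NFAT), GCGNGGGCG (EGR), AAAGGTCA (NR4A) and TGTGGT (Runx). The printed Egr2 promoter, 1 of 5 overlapping or neighbouring RefSeq windows of this gene, held a CArG box at bases 179 to 188 counted from its first printed base, overlapping a TGGAAA at bases 186 to 191. A CArG box was present in 1.63% of the 32851 RefSeq promoter windows of 300 bases, and TGGAAA in 21.4%. These windows are longer than the 250 bases printed. Of the 5 Egr2 windows, 4 held a CArG box, 3 the CRE word and 1 the NFAT word. The CRE word was also in the Nr4a3 window, and in 7.51% of all promoters. The Nr4a1 promoter held an EGR word at bases 191 to 199, against 5.55% of all promoters. TGTGGT stood at bases 100 to 105 of the Nr4a3 intronic stretch, which is 300 bp long. It was in 25.1% of the central 200 bp of the genome's intervals, a shorter length. The Nr4a1 upstream and Nab2 stretches held none of the 7 words. Promoter windows were matched for 4 of the 6 genes, and none for Egr1 and Egr3. Over the 36 intervals, the central 200 bp held the Runx word in 5, the NFAT word in 4, and the CRE, AP-1 and EGR words in 2 each, with none for the CArG box or the NR4A word. These make 13.9%, 11.1% and 5.56% of the intervals, where the shares over all intervals were 25.1% for Runx, 14.9% for NFAT, 3.35% for CRE, 6.82% for AP-1, 1.67% for EGR, 0.887% for the CArG box and 1.04% for NR4A. A match describes the letters and is no evidence of binding.

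Libraries held 19343 to 41535 peaks each. The lowest count was in CLP replicate 1, where the other CLP libraries had 41535 and 40136. The read depth of each single library is unknown, because the peak lists carry no counts and the study's methods give only a range over its libraries. Each peak has a score from the peak caller, which was used here only as a rank: a percentile of 100 is the highest-scoring peak of its library. The score was near a ceiling at 3100, a value shared by 58 to 1265 peaks of a library and exceeded by 8 to 115. These tied peaks received 1 percentile, from 98.2 in CLP replicate 2 to 99.8 in NKT replicate 1, CLP replicate 1 and ILCP, so values there reflect the number of ties and cannot be ordered. Of 8 T cell marker genes, all had a start-site peak in every thymic library and 3 to 5 in marrow libraries. Of 6 CLP markers, 5, 6 and 6 had one in CLP, 4 and 3 in ILCP, and 2 or 3 in thymic libraries. Among them Rag1 had one only in the CLP libraries and Flt3 only in marrow, whereas Ebf1 had one in all 9 libraries and Il7r stood higher in the thymus, at 62.0 to 80.1 against 26.8 to 59.2 in CLP. Of 8 ILCP markers, 6 and 5 had one in ILCP, 5 to 7 in CLP and 7 in each thymic library, so this list did not set ILCP apart. Of 4 NKT markers, 2 and 3 had one in NKT, and 0 or 1 in each other library. Zbtb16 had one in both NKT and both ILCP libraries, in CLP replicate 2 and in no CD4SP library. The start-site peak of Cd4 stood at percentiles 28.7 and 34.3 in CD4SP and at 99.8 and 99.2 in NKT, an order whose cause was not tested. Klrb1c, which encodes the NK1.1 antigen of mature NKT cells, had no such peak in any library. Of 4 myeloid markers, 0 or 1 had such a peak in a library, and Elane and Cebpe had none anywhere. Of 3 erythroid markers, 1 to 3 had one, Klf1 in every library.

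Of the 36 intervals, 11 were open in all 9 libraries and 25 in all 4 thymic libraries, where 13.3% and 33.9% of the genome's intervals were. The number open was 27 and 30 in CD4SP, 27 and 28 in NKT, 14, 26 and 26 in CLP, and 17 and 18 in ILCP. The start-site intervals of Egr1, Egr2, Egr3, Nr4a1 and Nr4a3 were open in every library, although that of Egr3 had no marrow peak within 1 kb of the start site. A peak within 1 kb of a start site in all 5 marrow libraries, whose cells carry no TCR, was present for 4 of the 6 genes. Such a peak was also present for 34.3% of all protein-coding genes, and one in all 9 libraries for 31.9%.

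**Figure D1:**
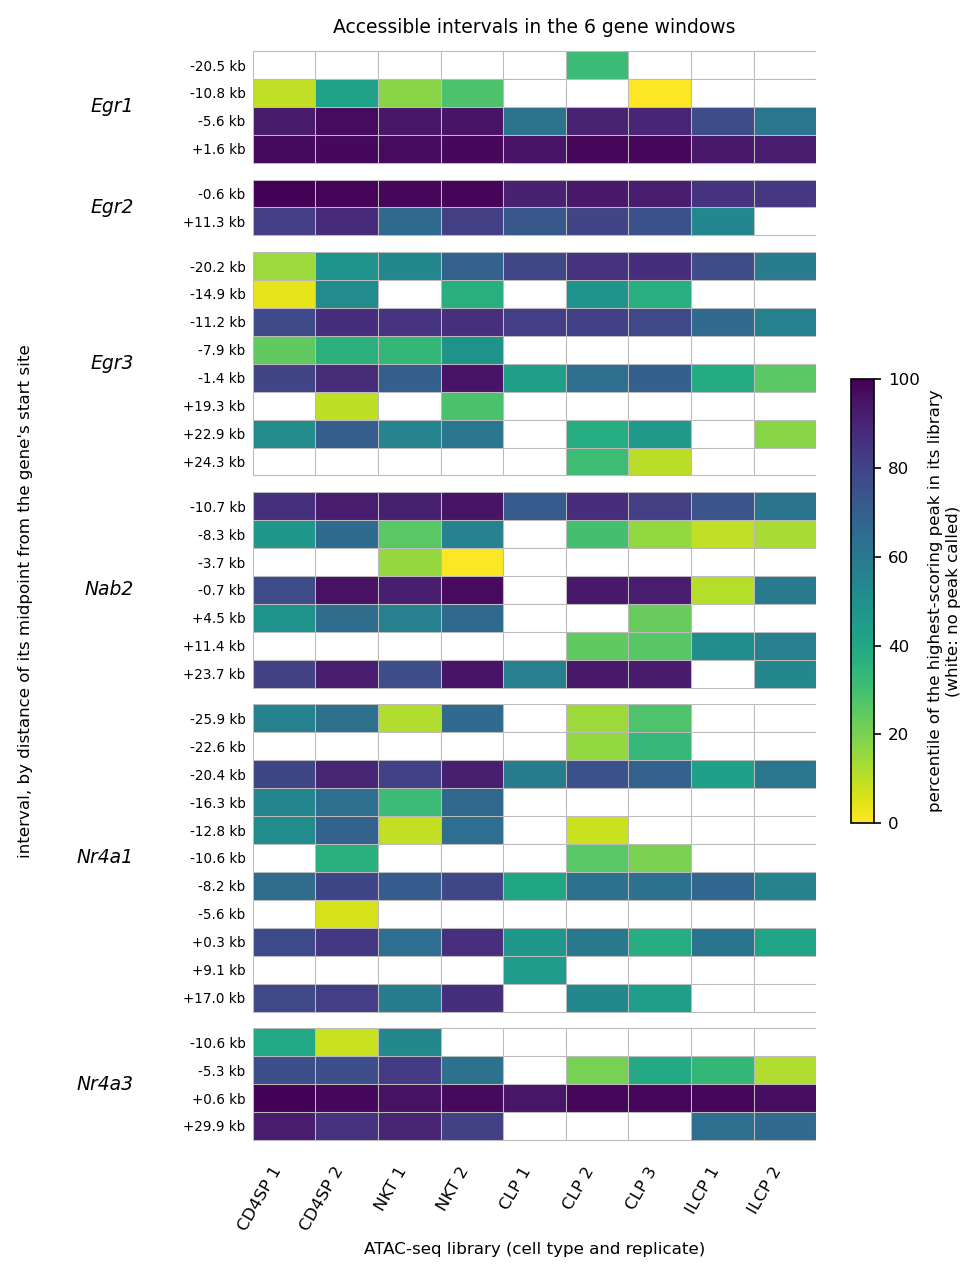
Each row is an interval of one of the 6 windows, labelled by the distance of its midpoint from the gene's main start site in kb, and each column a library. Colour gives the percentile of the highest-scoring peak (100 is the top of the library) and white means that no peak was called. The thymic libraries have 27 to 30 filled rows, the marrow libraries 14 to 26.

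Egr1 (chr18:34859823-34864984, plus strand) had a start-site peak near the top of each library. Its percentile was 97.4 and 97.9 in CD4SP, 96.9 and 98.4 in NKT, 94.7, 98.2 and 98.3 in CLP, and 93.4 and 92.2 in ILCP. CLP replicates 2 and 3 were at the tied score. The thymic and marrow values overlapped, with a difference in means of 2.28 percentile points (exact two-sided permutation test, p = 0.167, adjusted p = 0.316 over 11589 genes). ILCP lay below all CLP libraries, with a difference from CLP of -4.27 points (exact p = 0.2, smallest possible 0.1), where the median over all genes tested was -5.04. The peak was also wide. It was broader than the start-site peaks of 94.7% to 99.6% of the genes that had one in each library.

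The Egr1 locus also held a stretch that was covered in marrow only. In the 4 thymic libraries the start-site peak ended between 479 and 956 bp beyond the start site. In CLP replicates 2 and 3 it was 4975 and 5442 bp wide and ran to 3251 and 3713 bp beyond the start site, ending inside the gene. CLP replicate 1 and both ILCP libraries had a start-site peak that ended 479 to 580 bp beyond the start, and 2 separate further peaks each over the gene body and its 3′ flank. A stretch of 671 bp in exonic sequence of Egr1 (chr18:34863670-34864340) was covered in all 5 marrow libraries and in no thymic library. The Egr1 window held 3 peaks in every thymic library against 4, 4, 3, 4 and 4 in marrow, a difference of -0.8 peaks (exact p = 0.0476, adjusted p = 0.155). That count reversed to 0.45 with a 50-kb window and its p was 0.143 without 8 of the 9 libraries taken 1 at a time, all but CLP replicate 3. The count does not follow from the stretch alone. CLP replicate 3 covered the stretch and had 3 peaks, CLP replicate 2 had 4, one of them at -20.5 kb and one beyond the joined peak, and the thymic counts include the peak at -10.8 kb.

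Upstream of Egr1, the interval at -5.6 kb was open everywhere, at percentiles of 92.8 to 97.1 in the thymic libraries. The values were 61.8, 90.5 and 89.8 in CLP, and 77.3 and 60.9 in ILCP, so that every marrow library lay below every thymic one. Among genes with a start-site peak in every library, 27.2% had this order, and the share over other intervals is not given here. In ILCP and CLP replicate 1 the peak at -5.6 kb was 766 to 999 bp wide, and in the other 6 libraries 2508 to 2832 bp. The interval at -10.8 kb was weak, at 9.6 and 42.5 in CD4SP and 17.9 and 28.2 in NKT. In marrow only CLP replicate 3 had it, at 0.2, which is close to the lowest score of that library.

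**Figure D2:**
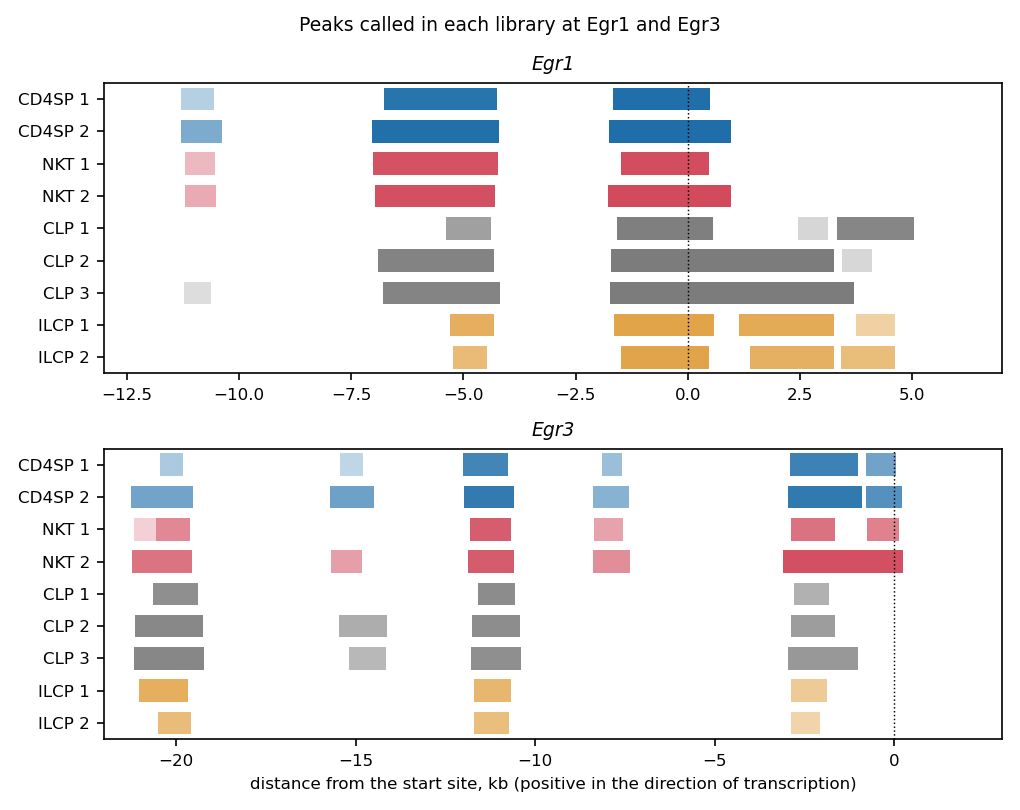
Bars are peaks of each library by distance from the start site in kb (dotted line), coloured by cell type and darker with higher percentile. At Egr1 the marrow bars continue to the right of the start site, where thymic bars end by 956 bp, and at Egr3 bars over the start site are present in the 4 thymic libraries only.

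Egr2 (chr10:67535475-67542188, plus strand) had a start-site peak near the top of each thymic library. The percentile was 99.5 and 98.9 in CD4SP, 98.4 and 99.2 in NKT, 91.0, 93.4 and 92.3 in CLP, and 85.2 and 84.1 in ILCP. Thymic libraries averaged 99.0 ± 0.459 (SD, n = 4) and marrow libraries 89.2 ± 4.27 (SD, n = 5), and the groups did not overlap. Both CD4SP libraries and NKT replicate 2 were at the tied score, and no marrow library was. The difference of 9.82 points had the smallest p this design allows (exact two-sided permutation test, p = 0.00794) and did not pass adjustment over all genes (adjusted p = 0.0732). Among 6994 genes with a start-site peak in all 9 libraries, 27.2% had all thymic values above all marrow values and 6.99% the reverse, so this order was common. ILCP lay below CLP without overlap, with a difference of -7.58 points (exact p = 0.1, the smallest possible). NKT and CD4SP overlapped (difference -0.385 points, exact p = 0.667, smallest possible 0.333). Of these libraries only NKT replicate 1 was below the tied score, so the order of the others carries no information.

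Inside Egr2, a stretch of 833 bp (chr10:67538528-67539360), annotated as intronic and covering an alternative start site, was under a peak in both CD4SP libraries and in neither NKT library. In CD4SP replicate 1 it was a separate peak at percentile 30.1, and in replicate 2 it was the end of a 3979-bp peak. The NKT peaks stopped 339 and 468 bp beyond the main start site. The only other interval of the window was the start site of Ado, the next gene, open in 8 libraries and absent from ILCP replicate 2.

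Within 20 kb, Egr2 had 2.25 ± 0.5 peaks in thymic and 1.8 ± 0.447 in marrow libraries (SD, n = 4 and 5; difference 0.45, exact p = 0.556, adjusted p = 0.741). The groups separated when peaks farther away were counted. With the window widened to 50 kb, Egr2 had 10 and 9 peaks in CD4SP, 8 and 7 in NKT, 3, 4 and 4 in CLP, and 3 and 2 in ILCP. Every thymic library thus exceeded every marrow library, by 5.3 peaks on average (exact p = 0.00794, the smallest possible, adjusted p = 0.0536 over 18830 genes), an order shared by 16.0% of all genes with a 50-kb window. Of the 8 intervals that lay 20 to 50 kb from the gene, 7 were open in thymic libraries, as were 66.4% of the genome's intervals, and the exception, at +28.4 kb, was called in ILCP only, at percentiles 14.9 and 8.5. The intervals at -40.4, -25.4 and +48.5 kb were open in all 4 thymic and no marrow libraries, beside 7.04% of the genome's intervals. Their percentiles were 60.4, 67.4, 46.0 and 53.3 for the first, in the order CD4SP then NKT. They were 44.4, 51.1, 64.5 and 61.5 for the second and 81.9, 82.0, 81.3 and 70.8 for the third. At -50.2 kb a peak was called in CD4SP only, at 51.5 and 51.4. At -34.1 kb the thymic values were 82.2 to 87.7, the CLP values 58.8, 78.7 and 77.6, and no ILCP library had a peak. No value here ties these intervals to Egr2 rather than to another gene.

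**Figure D3:**
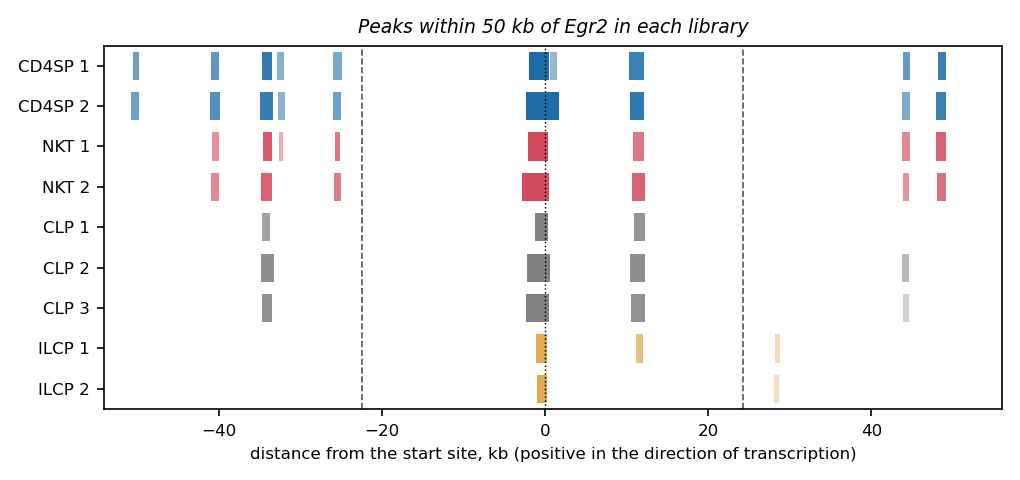
Bars are peaks within 50 kb of Egr2 in each library, by distance from the start site in kb and darker with higher percentile. Dashed lines bound the 20-kb window. CD4SP and NKT have 7 to 10 bars and CLP and ILCP 2 to 4, the difference lying outside the dashed lines.

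Egr3 (chr14:70077203-70082614, plus strand) was the member whose start site differed most plainly. A peak covered the start site in every thymic library, at percentiles 49.8 and 66.2 in CD4SP and 58.1 and 94.9 in NKT, the last being a joined peak of 3319 bp. No marrow library had a peak within 1 kb of it. Of 14043 genes with a start-site peak in any library, 2.04% had one in all thymic and no marrow libraries and 1.53% the reverse. The marrow libraries did have a peak just upstream in the same interval, whose near end lay between -2074 and -1019 bp, at percentiles 44.0, 64.4 and 69.9 in CLP and 39.0 and 25.7 in ILCP. The part specific to the thymus was therefore the 807 bp at the start site itself (chr14:70076437-70077243).

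A second thymic interval of Egr3 lay at -7.9 kb (chr14:70068808-70069844, intergenic), at 24.6 and 36.0 in CD4SP, 33.6 and 49.5 in NKT, and in no marrow library. The 2 intervals open in all 9 libraries besides the start-site interval showed different orders. At -11.2 kb the values were 77.4 to 86.8 in thymus, 78.5 to 81.7 in CLP, and 65.8 and 56.4 in ILCP. At -20.2 kb, in an intron of Pebp4, CLP ranked highest at 79.2, 85.8 and 87.0, above ILCP at 77.1 and 58.6 and above the thymic libraries at 15.1, 49.4, 53.7 and 68.9. Egr3 had 7 and 8 peaks in CD4SP, 6 and 7 in NKT, 3, 6 and 6 in CLP, and 3 and 4 in ILCP. The thymic mean was higher by 2.6 peaks (exact p = 0.0476, adjusted p = 0.155), with an overlap at 6 peaks. The p lay between 0.0571 and 0.0857 without any single library other than NKT replicate 1.

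Nab2 (chr10:127660918-127668568, minus strand) shares its start-site interval with Nemp1. The percentile of the peak near the Nab2 start site was 77.0 and 95.4 in CD4SP, 91.5 and 97.2 in NKT, 93.4 and 92.2 in CLP replicates 2 and 3, and 11.2 and 59.2 in ILCP. CLP replicate 1 had none. Thymic and marrow libraries overlapped (difference 26.2 points, exact p = 0.229, with 4 against 4 libraries). On the side of the gene body, 438 bp (chr10:127665770-127666207) were covered in all thymic libraries and in no marrow library. An interval in the Nab2 gene body, at +4.5 kb, was open in the thymus at 49.6, 64.5, 57.0 and 66.1 and in marrow only in CLP replicate 3, at 23.1. Both lie in introns of Nab2.

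The opposite pattern appeared at +11.4 kb, in an intron of the neighbour Stat6, where no thymic library had a peak. ILCP had values of 51.5 and 56.8, CLP replicates 2 and 3 had 24.5 and 26.4, and CLP replicate 1 had none. The interval printed above, at -3.7 kb, was called in NKT at 15.7 and 0.6 and in no other library. In NKT replicate 2 it was thus within the lowest 1% of peaks, and it was lost when each library was held to its 19343 highest-scoring peaks. The interval at -10.7 kb was open in all 9 libraries, at 86.2 to 94.7 in thymus and 61.4 to 87.2 in marrow. Nab2 had 7, 6, 8 and 7 peaks in thymic and 3, 5, 6, 5 and 7 in marrow libraries (difference 1.8, exact p = 0.111, adjusted p = 0.294). The exact p was 0.0476 with a window of 5 or 50 kb, and 0.0317 with equal numbers of peaks or among the higher-scoring 50%.

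Nr4a1 (chr15:101254269-101274795, plus strand) had 11 intervals, the most of the 6 genes. The start-site peak stood at percentiles 77.8 and 83.7 in CD4SP, 64.4 and 86.5 in NKT, 46.9, 59.8 and 37.6 in CLP, and 61.4 and 41.6 in ILCP. All thymic values exceeded all marrow values, an order seen in 27.2% of genes with a start-site peak in all 9 libraries. The means were 78.1 ± 9.82 (SD, n = 4) in thymus and 49.5 ± 10.7 (SD, n = 5) in marrow. The difference was 28.7 points (exact p = 0.00794, adjusted p = 0.0732), and it was 27.1 points with exact p = 0.0857 among the 19343 highest-scoring peaks of each library. In contrast to Egr1, the Nr4a1 peak was ordinary for a promoter: in CD4SP and NKT, 36.1% to 60.4% of genes with a start-site peak ranked lower, and in marrow 13.3% to 38.7%.

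The interval at -16.3 kb (chr15:101249890-101251252, intergenic) was the other one in the windows open in all thymic and no marrow libraries, at 54.3 and 64.3 in CD4SP and 31.8 and 66.5 in NKT. An interval over the alternative start site at -12.8 kb came close to that pattern, at 51.8, 69.1, 9.3 and 64.1 in thymus and in marrow only in CLP replicate 2, at 8.1. The intervals at -20.4 and -8.2 kb were open everywhere. The first had thymic values of 79.5 to 91.6 and marrow values of 43.6 to 75.1, which did not overlap, an order whose share over all intervals is not given here. The second had 65.1 to 79.6 in thymus and 40.7 to 66.8 in marrow, which overlapped in ILCP replicate 1. Those at -25.9 kb and at the start site of the neighbour Atg101 were open in the 4 thymic libraries and in CLP replicates 2 and 3, and in neither ILCP library.

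ILCP had the sparsest Nr4a1 locus, with 3 peaks in each library, at -20.4 kb, at -8.2 kb and at the start site. CLP had 4, 8 and 7 peaks and the thymic libraries 7, 9, 7 and 7. The ILCP and CLP values did not overlap (difference -3.33 peaks, exact p = 0.2, smallest possible 0.1), an order seen in 10.0% of genes, with 4.69% in the other direction. ILCP libraries have fewer peaks in all, 26328 and 25771, against 41535 and 40136 in CLP replicates 2 and 3. With the same number of highest-scoring peaks in each library the difference was 0.0 (exact p = 1.0), and among the higher-scoring 50% it was -0.333 peaks (exact p = 1.0).

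Nr4a3 (chr4:48045153-48086447, plus strand) was open at its start site in every library, across an interval of 7194 bp. The highest peak of the interval lay at percentiles of 94.4 to 99.5 in all libraries, at the tied score in CD4SP replicate 1 and CLP replicates 2 and 3. It covered DNA from about 3 kb upstream, and in CD4SP replicate 1 and CLP replicates 2 and 3 this upstream peak was joined with the start-site peak. The peak nearest the start site was at 99.5 and 97.0 in CD4SP, 78.3 and 92.0 in NKT, 69.1, 98.2 and 98.3 in CLP, and 85.0 and 85.0 in ILCP. NKT lay below CD4SP without overlap, with a difference of -13.1 points (exact p = 0.333, the smallest that 2 against 2 libraries allow). The value of CD4SP replicate 1 is that of the joined peak, with its upstream part. In NKT the upstream part was a separate peak, at 95.7 and 97.3, so unlike peaks are compared there. The 3 libraries with a joined peak were those at the tied score, so the order among their values carries no information. Thymic and marrow libraries overlapped (difference 4.59 points, exact p = 0.563).

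The intronic interval of Nr4a3 at +29.9 kb (chr4:48074374-48075733) set CLP apart from the other 3 cell types. Its percentile was 92.1 and 85.4 in CD4SP, 89.9 and 80.6 in NKT, and 64.3 and 65.9 in ILCP, and no CLP library had a peak, although CLP replicates 2 and 3 had the most peaks of all libraries. The interval at -5.3 kb was open in all libraries but CLP replicate 1, at 62.3 to 82.5 in thymus and 12.1 to 39.7 in marrow. The interval at -10.6 kb was called in both CD4SP libraries and NKT replicate 1 only. Nr4a3 had 6, 5, 6 and 4 peaks in thymic and 2, 3, 5, 4 and 4 in marrow libraries (difference 1.65, exact p = 0.0794, adjusted p = 0.223). Among intervals 20 to 50 kb from the gene, one at -32.7 kb was open in all thymic libraries at 74.1 to 86.6 and in no marrow library. Another, at +63.7 kb from the start site, was called in the CLP libraries only, at 12.5, 22.9 and 15.9. That at -38.6 kb was called in CLP replicates 2 and 3 only, at 3.4 and 16.6, and that at +79.8 kb, over the start site of Stx17, in every library.

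**Figure D4:**
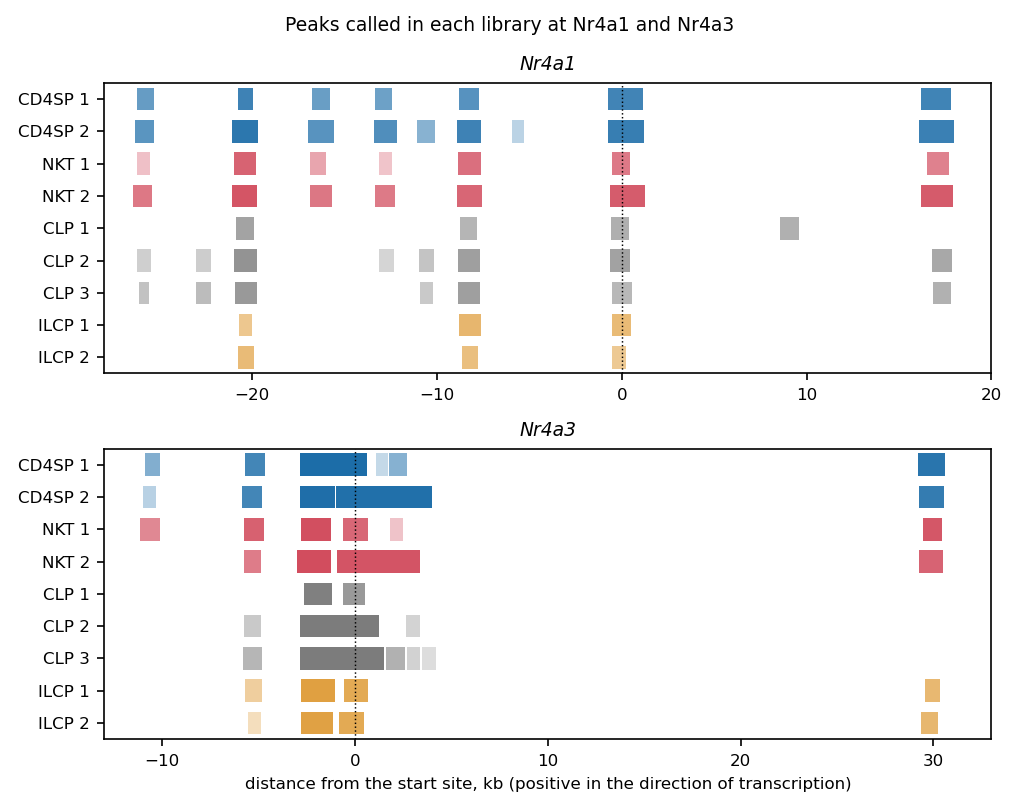
Bars are peaks of each library at Nr4a1 and Nr4a3 by distance from the start site in kb, darker with higher percentile. At Nr4a1 the bars near -16 kb are in CD4SP and NKT only and ILCP has 3 bars, and at Nr4a3 the bars near +30 kb are missing in the 3 CLP libraries.

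Counted over the 6 windows, intervals open in every library of one group and in none of the other were few. Between NKT and CD4SP there was 1 such interval for NKT, the weak one at Nab2, and 0 for CD4SP, out of 31 open in either. These are 3.23% and 0%, where the genome had 6.48% and 5.21%. Between ILCP and CLP there was 1 for ILCP, the Nr4a3 intronic interval, and 0 for CLP out of 30, that is 3.33% and 0% against 8.67% and 8.18% in the genome. Without CLP replicate 1, the library with the fewest peaks, 6 of 29 intervals were specific to CLP and 1 to ILCP, or 20.7% and 3.45%, against 30.5% and 8.71% in the genome. Between thymus and marrow there were 2 for the thymus, at Egr3 and Nr4a1, and 0 for marrow, or 5.56% and 0% of 36 against 7.04% and 2.04%. No interval was shared by all NKT and ILCP samples while closed in CD4SP and CLP, where the genome had 0.605%, and none showed the reverse, where it had 0.162%. No share of the 6 windows of 20 kb in these comparisons was above that of the genome. With windows of 50 kb the thymic share was, at 6 of 60 intervals or 10.0%, 3 of the 6 being the distant ones of Egr2.

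Counting covered bases rather than whole intervals, in stretches of at least 200 bp, split the joined peaks. This was chosen after the data were seen. NKT-specific stretches made 1.02% of the covered bases of the windows and CD4SP-specific ones 1.96%, against 4.56% and 3.8% of the genome's. ILCP-specific stretches made 1.26% and CLP-specific ones 0.633%, against 5.32% and 6.13%. Thymus-specific stretches numbered 6, at Egr3, Nab2 and Nr4a1, and made 4.69% against 4.85% of the genome's. The only marrow-specific stretch was the one in Egr1, 1.0% against 1.31%.

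Numbers of peaks separated no member between NKT and CD4SP. Differences ran from -1 to 1 peak and the groups overlapped or tied for all 6 genes (exact p of 0.667 to 1). Among all genes, 9.47% had more peaks in both NKT libraries and 6.6% in both CD4SP libraries. Between thymus and marrow the members' median difference was 1.72 peaks, beside 0.45 for all 17744 genes, and all 6 members' groups overlapped, while 12.8% of genes had all thymic above all marrow libraries and 3.54% the reverse. The median difference in start-site percentile between thymus and marrow was 9.82 points for the members with one, beside 6.85 for all genes tested, and between ILCP and CLP -4.27 beside -5.04. Of start-site percentiles, 1 of 6 members lay apart between NKT and CD4SP (Nr4a3, higher in CD4SP), beside 14.3% of genes higher in NKT and 13.0% higher in CD4SP. For Nr4a3 the value of CD4SP replicate 1 was that of a peak joined with one upstream. Between ILCP and CLP, 2 of the 4 members with a start-site peak in all 5 libraries lay apart, Egr1 and Egr2, both higher in CLP, beside 20.2% of genes higher in CLP and 11.1% higher in ILCP. Between thymus and marrow, 2 of the 4 members with one in all 9 libraries lay apart, Egr2 and Nr4a1, both higher in thymus. Among all genes these orders made 27.2% for the thymus and 6.99% for marrow. After Benjamini-Hochberg adjustment of the exact permutation tests, 0 members and 0.0% of genes passed in any comparison, and 5455 of 17744 genes had an unadjusted p under the 5% level for peaks between thymus and marrow and 3812 of 11589 for the start-site percentile. With 2 or 3 libraries a group, NKT against CD4SP and ILCP against CLP could not reach that level.

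**Figure D5:**
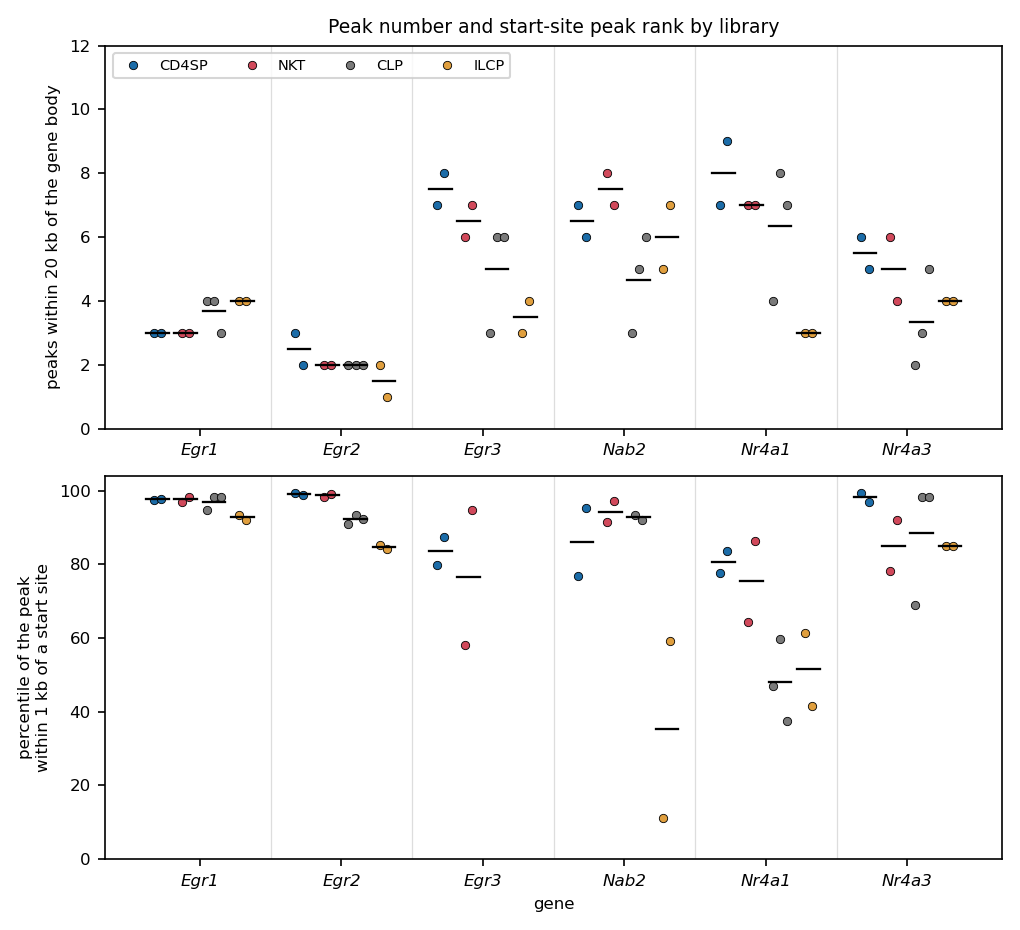
Each point is a library and each bar a group mean, for the number of peaks within 20 kb of the gene body (top) and the percentile of the highest peak within 1 kb of a start site (bottom). Egr2 and Nr4a1 have all thymic points above all marrow points in the bottom panel, and Egr3 has no marrow points. Of genes with a start-site peak in all 9 libraries, 27.2% had that order of thymus above marrow.

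Peaks were also counted at 24 further genes of TCR signalling and agonist selection. These are raw counts, not scaled to the peaks of a library, which numbered 33648 to 38793 in thymic and 19343 to 41535 in marrow libraries. Whether genes with many peaks separate more easily was not tested. In 9 of the 24 all thymic libraries had more peaks than all marrow libraries and in 0 the reverse, with a median difference of 2.4 peaks. Over all genes these orders made 12.8% and 3.54%, and the median difference was 0.45 peaks. The 5 with the largest differences were Nfatc1 (14.5 ± 2.52 peaks in thymus and 5.0 ± 3.74 in marrow, SD, n = 4 and 5), Tox (12.8 ± 2.75 and 3.8 ± 1.64), Cblb (17.8 ± 2.63 and 9.0 ± 2.92), Nfatc2 (8.75 ± 0.957 and 3.6 ± 2.3) and Dusp2 (6.75 ± 0.957 and 2.2 ± 1.1). Nfatc1 and Nfatc2 encode the NFAT factors that carry the calcineurin signal, Tox a factor of CD4 lineage development, Cblb a ubiquitin ligase that dampens TCR signals, and Dusp2 a MAP kinase phosphatase.

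Between NKT and CD4SP, 2 of the 24 had more peaks in both NKT libraries, Zbtb16 (12.5 ± 0.707 against 3 in each CD4SP library) and Pdcd1 (8.5 ± 0.707 against 3 in each). 4 had more in CD4SP, among them Tox (15.0 ± 1.41 against 10.5 ± 0.707), beside 9.47% and 6.6% of all genes. Between ILCP and CLP, 2 had more in ILCP, Pdcd1 (7.5 ± 2.12 against 2.33 ± 0.577) and Id2 (3 in each against 1.67 ± 0.577), and 4 had more in CLP, among them Cd5 (0.5 ± 0.707 in ILCP against 4 in each CLP library), beside 4.69% and 10.0% of all genes. None of the 24 passed adjustment in any comparison, the smallest adjusted p of any gene being 0.0619 for peaks between thymus and marrow. Pdcd1, which encodes PD-1, was thus the only one of the 24 with more peaks in both PLZF-expressing groups than in the control of the same organ, and for Zbtb16 the ILCP and CLP libraries overlapped.

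Start-site percentiles could be compared for genes of the same list with a peak in every library, which leaves out Zbtb16, whose start-site peak was in both NKT and no CD4SP libraries. Between NKT and CD4SP, 8 of the 22 genes with a start-site peak in all 4 libraries were higher in both CD4SP libraries and 0 in both NKT libraries, beside 13.0% and 14.3% of all genes. Pdcd1 was among the 8, at 94.9 and 88.7 in CD4SP and 85.1 and 79.8 in NKT. Between ILCP and CLP, 8 of 14 were higher in CLP and 0 in ILCP, beside 20.2% and 11.1%. Id2 was among these 8, at 85.3, 91.9 and 89.7 in CLP and 75.0 and 81.7 in ILCP, and Pdcd1 overlapped. Between thymus and marrow, 3 of 14 were higher in the thymus (Gadd45b, Nfatc3 and Srf) and 0 in marrow, beside 27.2% and 6.99%.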

How the data were processed

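ATAC-seq peak lists of 9 libraries were used. Per the study's methods and the labels, the authors aligned reads to mm10 with bowtie and ran the peak caller MACS on one library at a time, and the submitters' notes also name Picard and HOMER. The MACS version and duplicate handling are not given in the sources used here. The deposited lists hold positions and a peak score without counts, so the depth of each library is unknown and no interval for counting error can be given. Scores are 120 or above in every list, so weaker peaks were not seen. The score was used as a rank within the library.

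The 6 genes, the pathway and marker lists and the tests were chosen with earlier results of these data known. Gene models came from GENCODE M21. Peaks sharing 1 bp or more were joined into intervals. Each member was described, and intervals were named where they were specific to a group, at a start site or open in all 9 libraries. Others named (at Egr1 -10.8 kb, Nab2 +4.5 and +11.4 kb, Nr4a1 -12.8 and -25.9 kb, Nr4a3 -5.3 and -10.6 kb, Ado, and those beyond 20 kb) were chosen after their values were seen. From the pathway list, at most 5 genes a comparison were named, by size among those whose groups do not overlap. Genes of that list named for their start-site percentile were chosen after their values were seen, as were the single markers. Exact two-sided permutation tests over libraries were run for all protein-coding genes with Benjamini-Hochberg adjustment (numpy 2.4.6, scipy 1.17.1, pandas 2.3.3) and checked on simulated data. Window size, peak cut-offs, overlap and left-out libraries were varied. Motifs were searched in 71398 of the 71400 intervals. The Runx1 ChIP-seq and input samples were not analysed here. One marker list is not reported here.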

Additional observations from a re-analysis of the deposited data

How the results depend on the processing

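The lists hold peaks past a score cut-off without counts, so a missing peak may be a weak one, and 2 or 3 libraries a group leave the within-organ tests unable to reach the 5% level. Of the counts of specific intervals, 87 alternative values stayed within 1.5 times the count reported or at 0 where it was 0, and the others follow. A count that stayed need not hold the same intervals. Among the higher-scoring 50%, the 1 for NKT was not the Nab2 interval, whose percentiles were 15.7 and 0.6. The 2 for the thymus there were not those reported, which stood at 24.6 in CD4SP replicate 1 (Egr3) and 31.8 in NKT replicate 1 (Nr4a1). The cause of each shift was not tested unless the setting itself removes or adds windows, peaks or libraries. Intervals specific to NKT numbered 0 with gene bodies only, 2 with a 50-kb window and 0 with an equal number of highest-scoring peaks. Those specific to CD4SP numbered 1 with 50 kb, 2 when open in any library counted, 2 as stretches and 0 to 2 with a library left out. Those specific to ILCP numbered 2 with 50 kb, 2 with equal numbers, 2 among the higher-scoring 50% and 1 with any library left out. For CLP the counts were 3 with 50 kb, 1 with 50% of an interval covered, 11 in any library, 1 as stretches and 0 to 6 with a library left out, 6 without CLP replicate 1. Thymic counts were 0 with gene bodies, 1 with 5 kb, 6 with 50 kb, 6 in any library, 6 as stretches and 2 to 4 with a library left out, 4 without CLP replicate 3. Marrow counts were 1 with 50% covered, 5 in any library, 1 as stretches and 0 to 1 with a library left out, 1 without CLP replicate 1. NKT with ILCP had 1 and CD4SP with CLP 6 in any library. Searched over whole intervals, which differ in length, motifs were found in 6 of the 36 for the CArG box, 7 for TGACGT, 15 for TGANTCA, 29 for TGGAAA, 9 for GCGNGGGCG, 2 for AAAGGTCA and 21 for TGTGGT. These make 16.7%, 19.4%, 41.7%, 80.6%, 25.0%, 5.56% and 58.3%, where whole intervals of the genome had 5.62%, 14.4%, 29.4%, 63.2%, 5.95%, 5.84% and 63.8%.

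Differences whose sign turned were these, none of them past the 5% level in the reported form except the Egr1 peak count between thymus and marrow. In peaks between NKT and CD4SP, Egr3 was 0.5 among the higher-scoring 50%, Nab2 -0.5 in the gene body, -1.5 with equal numbers and -0.5 among the higher-scoring 50%, and Nr4a3 1.0 with equal numbers, 1.0 among the higher-scoring 50% and -1.5 to 0.5 with a library left out. Between ILCP and CLP, covered bp gave -1732 for Egr1, -2971 for Nab2 and -759.2 for Nr4a3, and Nr4a3 was -0.333 peaks in the gene body and -1.0 with 50 kb. Between thymus and marrow, Egr1 was 0.45 with 50 kb and Egr2 -0.0045 per 10000 peaks. Between thymus and marrow the exact p of the peak count went under the 5% level for Egr2 (50 kb), Nab2 (4 settings), Nr4a1 (5 kb, equal numbers, higher-scoring 50%, covered bp; 0.0159 to 0.0397) and Nr4a3 (higher-scoring 50% 0.0476, covered bp 0.0317), and rose above it for Egr1 and Egr3 (each with covered bp, 0.278 and 0.0714, among others). In start-site percentile between NKT and CD4SP, Egr1 was 1.5 as a rank number and -0.00775 with equal numbers, and Egr3 18.4 for the peak covering the start.

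With a library left out, the percentile differences between NKT and CD4SP ran from -0.748 to 0.808 for Egr1, -0.783 to 0.013 for Egr2, -25.6 to 11.2 for Egr3, -1.07 to 17.4 for Nab2 and -16.3 to 5.75 for Nr4a1, and between ILCP and CLP from -6.46 to 13.3 for Nr4a1 and -13.3 to 1.31 for Nr4a3. With the replicate number as a replicate block, Nr4a1 was -1.87 and Nr4a3 1.31 between ILCP and CLP, and no call changed. Deviations of same-numbered libraries correlated at 0.177 for NKT with CD4SP and at -0.0136 and -0.00492 for ILCP with CLP over 71400 intervals, and NKT and CD4SP libraries shared 66.1% and 69.8% of the intervals of either with the same number against 63.0% and 65.0% with the other. With 2 pairs and no label of a shared animal, batch or day, the numbers were not taken as pairs.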

Other observations

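The share of each library's covered bases that fell in a gene's window was compared over the 9 libraries, as a description. The sum over the 6 genes was 1119 to 1269 bp per Mb of covered sequence in thymic libraries, 843.1 to 1121 in CLP and 942.3 and 997.4 in ILCP. Among 10138 genes, those whose share followed this sum most closely were Mum1 (Pearson r = 0.981), Mbd4 (0.976), Abraxas1 (0.975), Cars (0.974) and Fnip1 (0.971), all over the same 9 libraries, which also share the total that each value is divided by. The 6 genes did not follow the sum alike. Nr4a1 (0.901) and Egr3 (0.846) were closest to it, and Egr1 ran against it (-0.309). Egr1 had 145.4 to 163.4 bp per Mb in thymic libraries, 303.1, 176.3 and 175.9 in CLP, and 262.4 and 254.1 in ILCP, so that every marrow library exceeded every thymic one. This order holds for the share of covered bases, and how common it is over all genes is not given here. In covered bp the Egr1 windows overlapped, at 5414 to 6458 in thymus and 5530, 9028, 8665, 6198 and 5819 in marrow (exact p = 0.278). Of the 15 pairs of members, Egr3 and Nr4a1 were most alike (0.875), followed by Egr2 and Nr4a1 (0.822), and Egr1 and Nab2 most opposed (-0.731).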
